A study of Homo sapiens with 5 samples.

Results

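Integrins are cell surface receptors made of 1 alpha and 1 beta subunit, and 10 of the 26 human genes for these subunits were followed here, 4 beta subunits (ITGB1, ITGB3, ITGB5 and ITGB8) and 6 alpha subunits (ITGAV, ITGA2, ITGA3, ITGA4, ITGA5 and ITGA6). The set was selected on 1 measured value, the low ITGB8 level after FAM53C knock-down, so the ITGB8 values are given as a description without a test. The members were found by symbol in GENCODE release 44 among the 64252 genes of the count table, and all 10 passed the filter on low counts.

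Alpha and beta subunits span the membrane as a pair. Their outer parts bind matrix proteins such as fibronectin, laminins and collagens, or the latency peptide that keeps TGF-beta inactive. The short tails of most beta subunits bind talin and kindlins, which link the receptor to actin. Proteins that bind the ITGB8 tail were followed as a list of their own. ITGB1 pairs with many alpha subunits, whereas ITGB8 and ITGB5 pair with ITGAV alone. ITGAV with ITGB8 is known for releasing active TGF-beta from its latent complex, and ITGAV with ITGB5 binds vitronectin and serves in the retinal pigment epithelium in the uptake of photoreceptor outer segments.

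The cells, labelled as epithelial, were of RPE-1, a human line immortalized from retinal pigment epithelium. They were transfected with RNAiMAX and collected 48 hr later, and poly(A) RNA was sequenced. The 3 siCtrl libraries, of the genotype WT, received a control siRNA (ON-TARGET Control #1), and the 2 siFAM53C libraries, labelled FAM53C KD, received a pool of ON-TARGETplus siRNAs against FAM53C, each at 5 µM. All libraries come from 1 cell line, and knock-down leaves residual transcript. The labels do not say whether replicates were separate cultures, so each p-value measures only the spread between these samples, and in bulk RNA fewer cells with a transcript cannot be told apart from less of it per cell.

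The libraries held 19260124 to 25615415 counts, which were scaled with TMM factors to CPM, counts relative to a fixed library total. FAM53C, the targeted gene, had 1434, 1141 and 1099 counts in siCtrl and 375 and 525 in siFAM53C. On the first principal component, the third siCtrl and the second siFAM53C library were on one side, at 33.7 and 44.9, siCtrl replicates 1 and 2 on the other, at -31.5 and -47.4, and siFAM53C replicate 1 between them, at 0.264. Differences were therefore also computed for siFAM53C replicate 1 against siCtrl replicates 1 and 2, and for siFAM53C replicate 2 against siCtrl replicate 3. These are called the within-side values. They assign siFAM53C replicate 1 to the side of siCtrl replicates 1 and 2, although the component placed it between the sides. Of the listed pigment epithelial genes, RPE65 and TTR had 0 counts in every library, and RLBP1, TYR and TYRP1 had 0 to 1, 0 to 2 and 0 to 2. BEST1, PMEL and LRAT had 4 to 15, 13 to 29 and 16 to 40 counts, and the lineage factors MITF and OTX2 713 to 1053 and 281 to 403. The keratins KRT8, KRT18, KRT7 and KRT19 had 4508 to 8442, 2818 to 4787, 111 to 218 and 0 to 5 counts. The mesenchymal filament VIM had 77560 to 91239. Among markers of other cells, the leukocyte gene CD3E, the platelet genes PF4 and GP9 and the endothelial gene CDH5 had 0 counts in every library, while the leukocyte genes PTPRC and CD14 had 2 to 20 and 0 to 7 counts and the endothelial genes PECAM1 and VWF 4 to 20 and 0 to 4, and no marker gene that passed the filter was called in either direction.

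ITGB8 (ENSG00000105855, chromosome 7 of GRCh38, 20330702 to 20415754, plus strand) was counted 1477, 1427 and 1307 times in siCtrl and 255 and 254 times in siFAM53C. Scaled for library size, these were 62.7, 74.7 and 68.5 CPM in siCtrl and 9.64 and 10.8 CPM in siFAM53C. The conditions lay far apart, and the replicates of each condition close together. The siFAM53C mean of 10.2 ± 0.808 CPM (SD, n = 2) was 14.9% of the siCtrl mean of 68.6 ± 5.99 CPM (SD, n = 3), a fitted log2 fold change of -2.75 and the value that chose the set. The within-side values were -2.82 and -2.66. By the fitted value it ranked 34 from the lowest of 15341 genes tested. Its antisense neighbour ITGB8-AS1, which shares 132 exon bases with it, had 1 to 9 counts per library.

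ITGB5 (ENSG00000082781, chromosome 3, 124761948 to 124901418, minus strand), the beta subunit of the vitronectin receptor, was the member with the next largest difference. It measured 574.9, 652.3 and 420.1 CPM in siCtrl and 187.0 and 129.1 CPM in siFAM53C. Both siFAM53C libraries were far below the lowest siCtrl library, which was replicate 3. The mean fell from 549.1 ± 118.3 CPM (SD, n = 3) to 158.0 ± 40.9 CPM (SD, n = 2), with a log2 fold change of -1.80 (SE 0.24, edgeR quasi-likelihood, Benjamini-Hochberg adjusted p = 0.008269). Its within-side values were -1.71 and -1.70, nearly equal although the controls on the 2 sides differed by up to 1.55-fold.

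The 3′ untranslated regions (UTRs) of these same genes hold a heptamer, GACAAGA, that an earlier analysis of these data had linked to lower values, and the sites are shown because ITGB8 and ITGB5 were the only members with it. Each window of 30 bases is read 5′ to 3′ on the gene's strand from GRCh38 with the GENCODE release 44 transcripts, with the heptamer in capitals. The ITGB8 windows are at chr7:20410462-20410491 and chr7:20413392-20413421 on the plus strand, and the ITGB5 window is at chr3:124763255-124763284 on the minus strand.
ITGB8, base 476 after the stop codon: gtggttgaataGACAAGAacagctagatga
ITGB8, base 3406 after the stop codon: tctttatgcaaGACAAGAgtcagccatcag
ITGB5, base 350 after the stop codon: cagcctggccaGACAAGAagactgtcagga

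**Figure D1:**
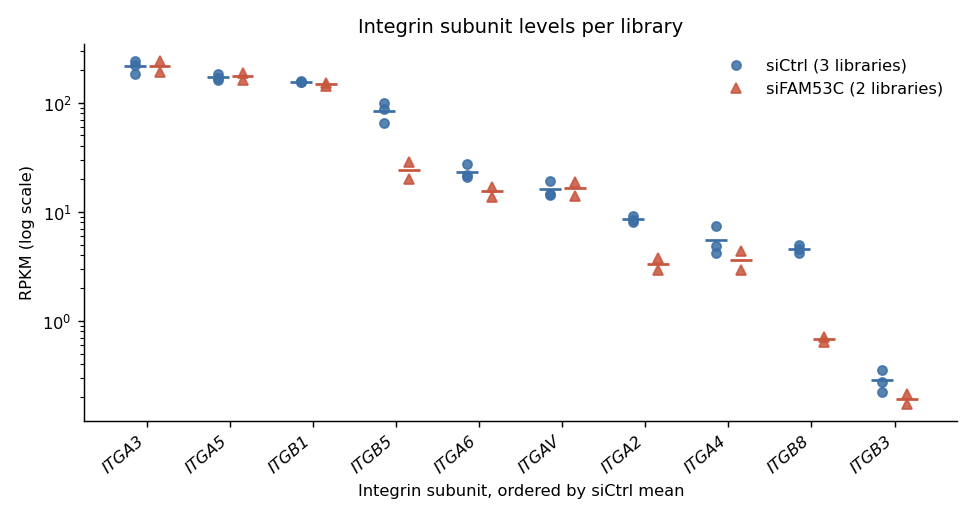
Levels of the 10 integrin subunits in RPKM (CPM per kilobase of exon, log scale), with 1 point per library and a line at each condition's mean, ordered by the siCtrl mean. The ITGB8, ITGB5 and ITGA2 points of the 2 siFAM53C libraries lie well below those of the 3 siCtrl libraries, while those of ITGAV, ITGA3 and ITGA5 overlap.

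ITGB1 (ENSG00000150093, chromosome 10, 32887273 to 33005792, minus strand), the common beta subunit, had 2255.3, 2240.4 and 2312.9 CPM in siCtrl and 2070.4 and 2202.4 CPM in siFAM53C. The siFAM53C libraries were both below the controls, by a narrow margin, at 94.1% of the siCtrl mean. The log2 fold change of -0.087 (SE 0.11) did not pass the test (edgeR quasi-likelihood, Benjamini-Hochberg adjusted p = 0.7793). ITGB3 (ENSG00000259207, chromosome 17, 47253827 to 47313743, plus strand), known from platelets and as another partner of ITGAV, was low, with 36, 46 and 36 counts in siCtrl and 31 and 34 in siFAM53C. In CPM the siFAM53C values of 1.17 and 1.44 were below the lowest siCtrl value of 1.53, with a log2 fold change of -0.57 (SE 0.41) that did not pass the test (edgeR quasi-likelihood, Benjamini-Hochberg adjusted p = 0.5545). ITGB3 shares 2266 exon bases on its own strand with ENSG00000259753, which was at 0 counts in every library, so reads of the overlap may be lost from both.

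ITGAV (ENSG00000138448, chromosome 2, 186590010 to 186680901, plus strand) is the alpha partner of ITGB8, ITGB5 and ITGB3. It measured 274.5, 282.7 and 373.9 CPM in siCtrl and 269.7 and 363.7 CPM in siFAM53C. Its levels followed the sides of the library split, with siCtrl replicate 3 and siFAM53C replicate 2 high, and the conditions overlapped. The log2 fold change was 0.029 (SE 0.18, edgeR quasi-likelihood, Benjamini-Hochberg adjusted p = 0.9642). The within-side values were -0.047 and -0.040.

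The beta subunits that can pair with ITGAV were compared per length, as RPKM. The summed RPKM of ITGB5 and ITGB8 was 6.51, 7.19 and 3.57 times that of ITGAV in siCtrl, and 2.1 and 1.09 times in siFAM53C. With the longest transcript as the length, an alternative added after seeing the data, the ratios were 3.95, 4.37 and 2.17 in siCtrl and 1.27 and 0.662 in siFAM53C. By either length the ratios did not overlap between conditions, while whether the beta transcripts exceeded ITGAV in siFAM53C replicate 2 turned with the length. Of the summed RPKM of ITGB1, ITGB3, ITGB5, ITGB6 and ITGB8, ITGB5 made up 35.6%, 38.6% and 28.3% in siCtrl and 16.7% and 11.5% in siFAM53C. ITGB8 made up 1.67%, 1.90% and 1.98% in siCtrl and 0.370% and 0.413% in siFAM53C. The share of ITGB1 ran from 59.3% to 69.6% in siCtrl and was 82.8% and 87.9% in siFAM53C, while its own level was at 94.1% of the siCtrl mean. With the longest transcripts, ITGB1 took 71.9% to 80.0% in siCtrl and 89.4% and 92.7% in siFAM53C, and ITGB5 18.4% to 26.5% in siCtrl and 10.2% and 6.87% in siFAM53C. Because ITGB8 was selected on its low level and transcript shares say nothing of surface protein, these shares are a description.

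**Figure D2:**
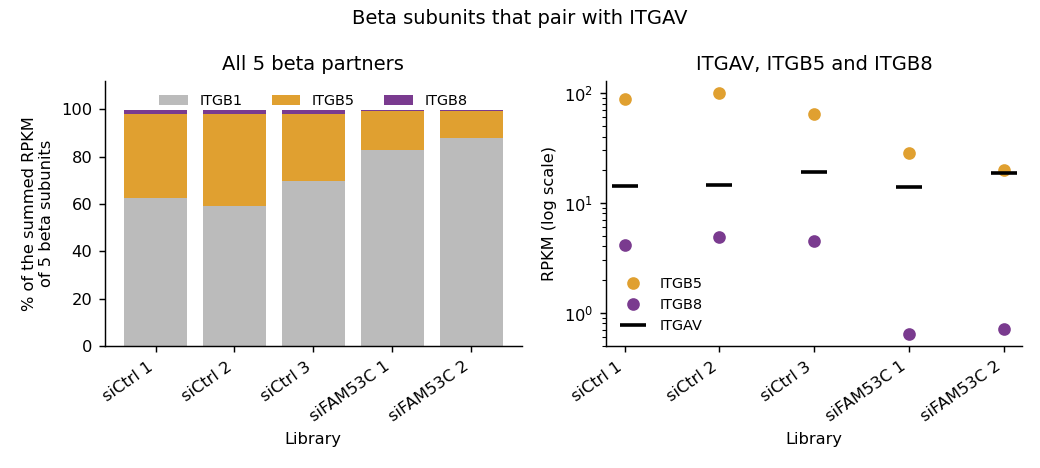
Beta subunits that can pair with ITGAV, by library, with the left bars giving the share of the summed RPKM of 5 beta subunits taken by ITGB1, ITGB5 and ITGB8 (ITGB3 and ITGB6 make up the small remainder to 100%) and the right points the RPKM of ITGB5, ITGB8 and ITGAV on a log scale. The ITGB1 share was 59.3% to 69.6% in siCtrl and 82.8% and 87.9% in siFAM53C, and with all exon bases as the length the ITGB5 point nearly meets the ITGAV line in siFAM53C replicate 2.

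ITGA2 (ENSG00000164171, chromosome 5, 52989340 to 53094779, plus strand), which forms a collagen receptor with ITGB1, measured 66.7, 72.4 and 64.1 CPM in siCtrl and 29.6 and 23.1 CPM in siFAM53C. The conditions were well separated, and the controls differed by at most 1.13-fold. The mean fell from 67.7 ± 4.24 CPM (SD, n = 3) to 26.3 ± 4.60 CPM (SD, n = 2), with a log2 fold change of -1.36 (SE 0.14, edgeR quasi-likelihood, Benjamini-Hochberg adjusted p = 0.002559) and within-side values of -1.23 and -1.47. ITGA2 shares no annotated exon base with another gene, and its 3′ UTR of 4180 bases does not hold the heptamer.

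ITGA6 and ITGA4 were lower by less, and did not pass the test. ITGA6 (ENSG00000091409, chromosome 2, 172427354 to 172506459, plus strand), a laminin receptor subunit, had 146.4, 138.5 and 181.5 CPM in siCtrl and 91.8 and 113.4 CPM in siFAM53C. The conditions did not overlap, and the log2 fold change was -0.60 (SE 0.15, edgeR quasi-likelihood, Benjamini-Hochberg adjusted p = 0.08702). By DESeq2 the adjusted p for ITGA6 was 0.01167, and over all 15 alternatives to this test it passed in 6, with adjusted p from 3.067e-05 to 0.4436. Without siCtrl replicate 3, the highest control, it passed in edgeR (adjusted p = 0.04221). ITGA4 (ENSG00000115232, chromosome 2, 181457202 to 181538940, plus strand), which binds fibronectin and VCAM1, had 51.9, 44.5 and 78.6 CPM in siCtrl and 31.4 and 46.2 CPM in siFAM53C. siFAM53C replicate 2 lay above siCtrl replicate 2, so the conditions overlapped, with a log2 fold change of -0.59 (SE 0.28, edgeR quasi-likelihood, Benjamini-Hochberg adjusted p = 0.3508). Its within-side values were -0.61 and -0.77, and it passed in 3 of the 15 alternatives, with adjusted p from 0.0002107 to 0.76. Of the exon bases of ITGA4, 2813 are shared with CERKL on the opposite strand. CERKL itself had a log2 fold change of -0.66 (edgeR quasi-likelihood, Benjamini-Hochberg adjusted p = 0.3254), and the strand setting of the counting is not given in the sources used here, so reads of the overlap may belong to either gene.

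The most abundant alpha subunits differed by less than their standard errors. ITGA3 (ENSG00000005884, chromosome 17, 50055968 to 50090481, plus strand), a laminin receptor subunit, had 2348.9, 2175.1 and 1780.7 CPM in siCtrl and 2352.8 and 1887.4 CPM in siFAM53C, with a log2 fold change of 0.013 (SE 0.16). ITGA5 (ENSG00000161638, chromosome 12, 54395261 to 54419266, minus strand), the fibronectin receptor subunit, had 1253.0, 1193.2 and 1357.4 CPM in siCtrl and 1195.3 and 1380.9 CPM in siFAM53C, with a log2 fold change of 0.023 (SE 0.13). Both overlapped between conditions, neither passed the test (edgeR quasi-likelihood, Benjamini-Hochberg adjusted p = 0.9834 and 0.9558), and libraries on the same side of the split had like levels.

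**Figure D3:**
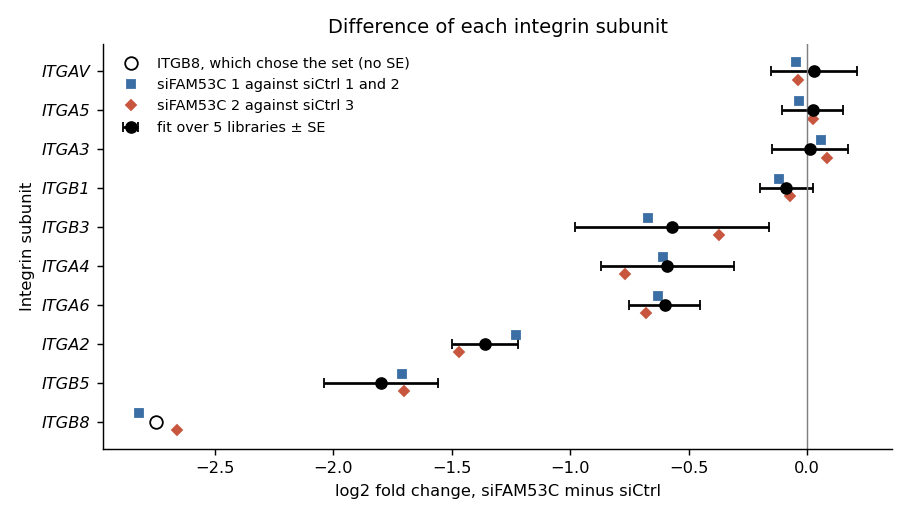
Log2 fold change of each member, siFAM53C minus siCtrl, with the fit over 5 libraries (black points, bars give the SE) and the within-side values (squares for siFAM53C replicate 1 against siCtrl replicates 1 and 2, diamonds for siFAM53C replicate 2 against siCtrl replicate 3). ITGB8, drawn open and without an SE because it chose the set, lies at -2.75, ITGB5 at -1.80 and ITGA2 at -1.36, and for these genes the within-side values lie on the same side of 0 as the fit.

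Of the 9 members other than ITGB8, 2 were called lower (ITGB5 and ITGA2), 0 higher and 7 neither, where 3.47% of all 15341 genes tested were called lower and 0.489% higher. A fitted log2 fold change below 0 was seen in 6 of the 9, and the median of the 9 was -0.57, against 0.016 over all genes. Of all 10 members, 6 had both siFAM53C libraries below all siCtrl libraries (ITGB8, ITGB1, ITGB3, ITGB5, ITGA2 and ITGA6) and 0 had both above. Over all genes tested, 18.8% were below without overlap and 16.7% above. Nothing is read from these counts, since the set was picked in this same contrast. Without ITGB8, the beta subunits had a median log2 fold change of -0.57 (n = 3 genes), and the alpha subunits of -0.29 (n = 6 genes).

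In the control cells, levels per length ran from 0.284 to 214.4 RPKM. ITGA3 was first with 214.4 ± 29.7 RPKM (SD, n = 3), followed by ITGA5 with 171.7 ± 11.3 and ITGB1 with 155.9 ± 2.63. The ranges of ITGA3 and ITGA5 over the siCtrl libraries overlapped, so their order is not beyond the spread. ITGB5 had 84.3 ± 18.2 RPKM, ITGA6 23.3 ± 3.43, ITGAV 16.1 ± 2.85 and ITGA2 8.57 ± 0.537 (SD, n = 3 each). ITGA4 with 5.47 ± 1.68 RPKM and ITGB8 with 4.53 ± 0.395 RPKM overlapped, and ITGB3 was last with 0.284 ± 0.0647 RPKM (SD, n = 3 each). With the longest transcript as the length in place of all exon bases, ITGB1 came first with 404.3 RPKM and ITGAV passed ITGA6, while ITGB8 was 9th of 10 by either length. The member with the largest difference was thus among the least abundant, whereas ITGB5, next in size of difference, was among the 4 most abundant.

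The 3 genes whose pattern over the 5 libraries lay nearest to that of ITGB8, by Euclidean distance of mean-centred log2 CPM among 9300 genes with a mean of at least 10 CPM, were LSM5, MAPK6 and ADGRL2. LSM5, a protein of the ring that binds U6 RNA, was at a distance of 0.0475, with 41.7, 49.1 and 44.4 CPM in siCtrl and 6.16 and 6.88 CPM in siFAM53C. MAPK6, an atypical MAP kinase, was at 0.201, and ADGRL2, a latrophilin adhesion receptor, at 0.389. Their fitted log2 fold changes were -2.79, -2.63 and -2.51, and each was low in both siFAM53C libraries. Because they were picked for likeness to ITGB8 over these same libraries, this was fixed by the choice and is a description only. On the chromosome, the nearest tested protein-coding genes were far from ITGB8. POLR1F, an RNA polymerase I subunit 621.7 kb away at lower coordinates, had 1431, 1220 and 948 counts in siCtrl and 844 and 638 in siFAM53C, with a log2 fold change of -0.98 (SE 0.15, edgeR quasi-likelihood, Benjamini-Hochberg adjusted p = 0.01318). SP4, a transcription factor 1012.3 kb away at higher coordinates, had a log2 fold change of -0.39 that did not pass (edgeR quasi-likelihood, Benjamini-Hochberg adjusted p = 0.4).

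The heptamer printed above was next counted in the longest annotated 3′ UTR of each tested gene, on the transcript strand only. ITGB8 held 2 copies in 5757 bases and ITGB5 held 1 copy in 1675 bases, while the other 8 members, with UTRs of 1032 to 4180 bases, held 0. Counting in any annotated UTR of the gene gave the same copies. Of the 12075 tested genes with a 3′ UTR, 10.2% held 1 copy and 1.35% held 2 or more. Of the genes with 2 or more copies, 24.5% were called lower, with a median log2 fold change of -0.26 and a median UTR of 5294 bases. The share was 13.9% for 1 copy, with a median of -0.17 and a median UTR of 3194 bases, and 2.92% for 0 copies, with a median of 0.020 and a median UTR of 1386 bases. UTR length thus moved with the copies, and its part in the differences was not tested here. These shares are no independent evidence, because the heptamer was found in the same contrast. ITGB8 lay below the 5th percentile of genes with 2 or more copies, a description only, because the set was selected on its low level. ITGB5 lay below the 5th percentile of genes with 1 copy, and ITGA2 below that of genes with 0 copies.

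**Figure D4:**
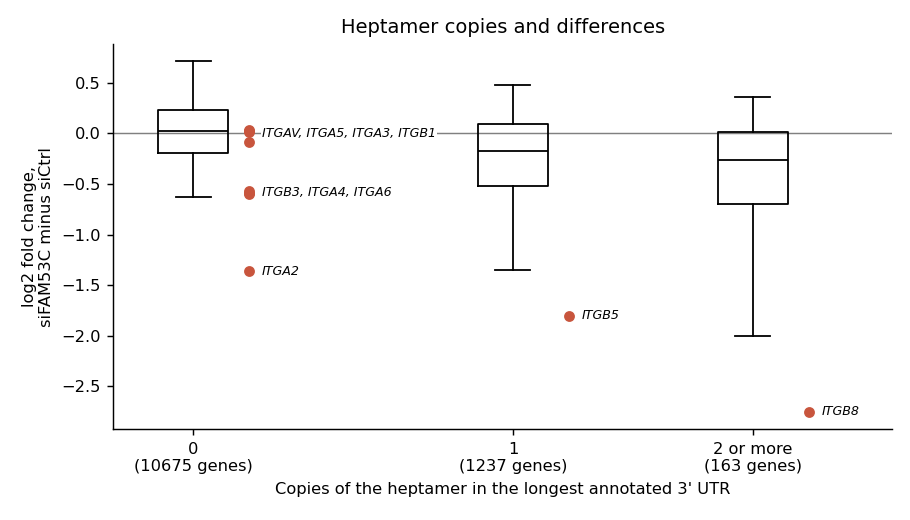
Log2 fold change, siFAM53C minus siCtrl, of genes with 0, 1 and 2 or more copies of the heptamer in their longest annotated 3′ UTR, with boxes from the first to the third quartile, a line at the median and whiskers at the 5th and 95th percentiles, and the 10 integrin subunits as points. ITGB8 is the member with 2 copies and ITGB5 the member with 1, and ITGA2 lies at -1.36 with 0 copies.

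The remaining 16 integrin subunit genes were low or absent with few exceptions. By the filter 9 were tested, 0 were called lower and 0 higher at the adjusted p threshold of 0.05 in edgeR, and their median log2 fold change was -0.0028. ITGA7, a laminin receptor subunit and the one with the most counts, had 113.0, 97.6 and 125.6 CPM in siCtrl and 129.5 and 160.7 CPM in siFAM53C, without overlap, and did not pass (log2 fold change 0.37, SE 0.14). ITGA1, another collagen receptor subunit and a neighbour of ITGA2 on chromosome 5, had 16.3, 17.9 and 32.9 CPM in siCtrl and 8.92 and 8.57 CPM in siFAM53C. It was below without overlap, with a log2 fold change of -1.35 (SE 0.32), and did not pass the test (edgeR quasi-likelihood, Benjamini-Hochberg adjusted p = 0.0689). It passed in 6 of the 15 alternatives, among them the fit without siCtrl replicate 3. Unlike ITGA2, ITGA1 shares exon bases with other genes, 1070 on its own strand (PELO and RPL17P21) and 1494 on the opposite strand. Reads there may be lost or belong to either gene. ITGA11, a collagen receptor subunit, and ITGAE, known from T cells, had 34.7 ± 8.10 and 20.6 ± 3.59 CPM in siCtrl (SD, n = 3) with log2 fold changes of -0.0028 and -0.056. ITGA10 and ITGB4 had 7.18 ± 1.77 and 3.77 ± 3.69 CPM in siCtrl (SD, n = 3), with log2 fold changes of -0.26 and 0.94, and the ITGB4 value rested on siCtrl replicates 1 and 2, at 1.87 and 1.41 CPM, against 8.02 in replicate 3. ITGB2, ITGB6 and ITGA9 were below 1 CPM in siCtrl on average. ITGB2 had 12, 9 and 9 counts in siCtrl and 24 and 27 in siFAM53C, above without overlap in CPM. Its log2 fold change of 1.07 (SE 0.55) did not pass the test (edgeR quasi-likelihood, Benjamini-Hochberg adjusted p = 0.3797). ITGA8, ITGAL and ITGAM had 0 counts in every library. A count of 0 allows up to 0.117 to 0.156 CPM on the unscaled library totals, depending on the library (3 counts, counting error only).

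Other genes that work with integrins were followed as 6 lists of ligands, latent TGF-beta proteins, regulators, plaque proteins, traffic proteins and proteins that bind the ITGB8 tail. With the remaining subunits, 108 of 126 genes were tested, 8 were called lower and 3 higher, to be read against the 3.47% and 0.489% of all genes, and the median log2 fold change was -0.0026, against 0.016 over all genes. Of the 108, 24 were below without overlap and 19 above, counts to be read against the 18.8% and 16.7% of all genes.

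Among 23 tested matrix ligands, NID1 fell and COL1A1 rose. NID1, nidogen of the basement membrane, measured 114.8, 111.6 and 133.6 CPM in siCtrl and 47.4 and 62.3 CPM in siFAM53C, without overlap, with a log2 fold change of -1.13 (SE 0.15, edgeR quasi-likelihood, Benjamini-Hochberg adjusted p = 0.007407). Without siFAM53C replicate 1 the NID1 call was lost (edgeR quasi-likelihood, adjusted p = 0.06146). COL1A1, a chain of type I collagen, rose by a log2 fold change of 0.74 (SE 0.14, edgeR quasi-likelihood, Benjamini-Hochberg adjusted p = 0.03098). FN1, fibronectin and the ligand with the most counts, had 5636.4 ± 1298.9 CPM (SD, n = 3) in siCtrl and 6181.3 ± 977.9 CPM (SD, n = 2) in siFAM53C, and the conditions overlapped.

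Of the 8 tested genes of the latent TGF-beta complex, on which ITGAV with ITGB8 acts, LTBP1 was called lower and 0 were called higher. By CPM, 2 of the 8 were below without overlap and 2 above, to be read against 18.8% and 16.7% of all genes. LTBP1, which ties the latent complex to the matrix, had 115.9 ± 5.66 CPM (SD, n = 3) in siCtrl and 78.8 ± 4.85 CPM (SD, n = 2) in siFAM53C, with the log2 fold change at -0.56 (SE 0.11, edgeR quasi-likelihood, Benjamini-Hochberg adjusted p = 0.0301). TGFB1, whose latency peptide is bound by ITGAV with ITGB8, had the highest mean CPM of the list over the 5 libraries, at 235.9 ± 16.4 CPM (SD, n = 3) and 234.3 ± 2.41 CPM (SD, n = 2), with a log2 fold change of -0.010 (SE 0.11).

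Among 19 tested activators and inhibitors of integrins, 3 were called lower and 0 higher, and the other 16 were not called, with a list median of -0.043. CD9, a tetraspanin, fell from 127.9 ± 27.7 CPM (SD, n = 3) in siCtrl to 34.4 ± 3.40 CPM (SD, n = 2) in siFAM53C, without overlap, with a log2 fold change of -1.89 (SE 0.20, edgeR quasi-likelihood, Benjamini-Hochberg adjusted p = 0.003061). PLAUR, the urokinase receptor, and CD47 had log2 fold changes of -0.82 and -0.72 (edgeR quasi-likelihood, Benjamini-Hochberg adjusted p = 0.007276 and 0.03098). FLNA, filamin, which binds beta tails and had the most counts of the list, measured 5264.6 ± 397.7 CPM (SD, n = 3) in siCtrl and 6049.1 ± 208.8 CPM (SD, n = 2) in siFAM53C. TLN1, talin, had a log2 fold change of 0.15 (SE 0.11), and neither it nor FLNA passed the test.

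Of 33 tested genes of the adhesion plaque, 2 were called lower, 2 higher and 29 neither, with a median log2 fold change of -0.0012. LIMS1, an adaptor bound to integrin-linked kinase, and TNS1, a tensin, had log2 fold changes of -0.95 and -0.52, and TNS2, another tensin, and the kinase SRC of 0.66 and 0.49 (edgeR quasi-likelihood, Benjamini-Hochberg adjusted p = 0.01606, 0.0478, 0.03693 and 0.04161). ACTN4, an actinin with the most counts of the list, had 1872.4 ± 150.6 CPM (SD, n = 3) in siCtrl and 2296.6 ± 68.2 CPM (SD, n = 2) in siFAM53C, and did not pass.

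Of 13 tested genes of integrin traffic, MYO10 was called lower and 0 higher. MYO10, the filopodial motor whose tail binds beta subunits, measured 200.5, 209.5 and 173.4 CPM in siCtrl and 66.1 and 63.8 CPM in siFAM53C. The conditions were far apart, with a log2 fold change of -1.58 (SE 0.12, edgeR quasi-likelihood, Benjamini-Hochberg adjusted p = 0.0009627). EHD1, a recycling protein with the highest mean CPM of the list over the 5 libraries, had a log2 fold change of -0.25 (SE 0.13). Of the 3 proteins that bind the ITGB8 tail, 0 were called. EPB41L3, a membrane skeleton protein, and PPP1R9B, spinophilin, had log2 fold changes of -0.13 and 0.21.

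The calls of CD9 and MYO10 held without each of the 5 libraries in turn, as did those of ITGB5 and ITGA2. Those of LTBP1, CD47, PLAUR, TNS1, COL1A1, SRC and TNS2 were each lost without siCtrl replicate 1, siCtrl replicate 2 or either siFAM53C library, and held without siCtrl replicate 3. With library totals only, the CD47 and TNS1 calls were lost too, and that of TNS1 also without robust moderation, an alternative added after seeing the data. The LIMS1 call was lost without siCtrl replicate 1, siCtrl replicate 2 or siFAM53C replicate 2. The highest adjusted p among these was 0.3523, for TNS1, in edgeR. The heptamer was held by 3 of the 8 lower genes of the lists, NID1 and TNS1 with 1 copy and MYO10 with 2. It was held by 0 of the 3 higher list genes and by 9 of the 97 not called. Of all tested genes with a 3′ UTR, 11.6% held it, and of the 524 called lower among them, 212 did. The heptamer was found in this same contrast, and nothing is read from these counts.

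**Figure D5:**
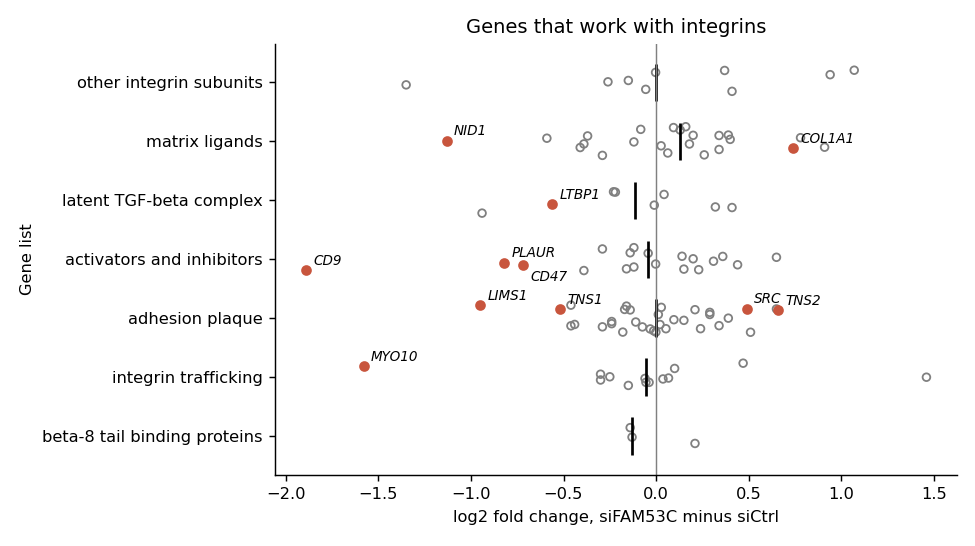
Log2 fold change, siFAM53C minus siCtrl, of the tested genes of 7 lists, with 1 point per gene, filled and named where the edgeR adjusted p was below 0.05, and a black line at each list's median. Most of the 108 points lie around 0, and CD9 and MYO10 are the lowest filled points, at -1.89 and -1.58.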

How the data were processed

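Poly(A) RNA of 3 siCtrl and 2 siFAM53C samples of RPE-1 cells was sequenced as paired reads. The authors deposited raw read counts per gene, not normalized, which they made with CutAdapt 2.10, HISAT2 on hg38 (reverse-stranded) and featureCounts. The strand setting of the counting and the annotation release are not given in the sources used here. Columns were matched to samples by name. Of 64252 genes, 56105 were found in GENCODE release 44 (GRCh38), which gave symbols, positions, exon lengths and UTRs.

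In edgeR 4.0.16 (R 4.3.3), low genes were removed by filterByExpr at a minimum count of 10 and total of 15, libraries were scaled by TMM, and siFAM53C was compared with siCtrl by the robust quasi-likelihood test with no covariate, Benjamini-Hochberg adjustment over 15341 genes and a threshold of 0.05. Log2 CPM used a prior count of 2, and RPKM was CPM per kilobase of exon bases. The code was tested on simulated data.

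Members, lists, markers and the heptamer were chosen with earlier results of these data known. Named genes were all members, FAM53C, other integrin subunits past the filter, the 3 nearest patterns and the neighbours of ITGB8. The called genes of each list were named too, with the gene of highest mean CPM, except in the list for the ITGB8 tail. The listed subunits at 0 counts, the markers, TLN1, EPB41L3 and PPP1R9B were named in addition. Alternatives were DESeq2 1.42.0, limma-voom (limma 3.58.1), other scalings and filters, replicate blocks, a term for the library split and each library left out. Totals of 19260124 to 25615415 counts limit the precision for low genes such as ITGB3. Protein sequences were not analysed here. Results for some listed genes are not reported here.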

Additional observations from a re-analysis of the deposited data

How the results depend on the processing

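The ITGB8 difference ran from -2.83 to -2.66 over its alternatives, its rank by level and the number of members with the heptamer did not move, and ITGB5 and ITGA2 were called lower in all 15 alternatives with a test (highest adjusted p 0.04329 and 0.02508, edgeR). Members called lower were 2 with the settings above. They were 4 with no filter on low counts, with the replicate block by column numbers and with the split term, since ITGA6 and ITGA4 then passed. The split term used the sides as assigned for the within-side values. In every alternative, 0 members were called higher. Over all genes, the 533 lower and 75 higher became 890 and 257 with DESeq2, 961 and 375 with no filter, 1636 and 1037 with the split term, and 121 higher with library totals only. Leaving out 1 library gave 157 to 886 lower and 6 to 414 higher, where a lone siFAM53C library was assumed to vary like the others. The fit without robust moderation was chosen after seeing the data.

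The replicate numbers of the titles and of the library columns differ for siFAM53C replicate 2. With a replicate block by titles 856 genes were lower and 355 higher, and by column numbers 1350 and 642. Deviations from the condition means correlated at 0.17 and -0.28 for the pairs by titles, and at 0.17 and 0.37 by column numbers. With only 2 siFAM53C libraries, their deviations mirror each other, and the first pair is the same in both numberings. These correlations therefore cannot decide which numbering, if any, links the samples.

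Values near 0 that were not called changed sign: ITGAV to -0.033 (column block), -0.044 (split term), -0.052 (without siCtrl replicate 1), -0.034 (without siCtrl replicate 2) and -0.20 (without siFAM53C replicate 2), ITGA3 to -0.10 (titles block), -0.085 (without siCtrl replicate 3) and -0.16 (without siFAM53C replicate 1), and ITGA5 to -0.022 (column block), -0.0083 (split term), -0.019 (without siCtrl replicate 2) and -0.087 (without siFAM53C replicate 2). Leaving out 1 library in turn, ITGAV ran from -0.20 to 0.22, ITGA3 from -0.16 to 0.16 and ITGA5 from -0.087 to 0.12. The cause was not tested.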
